A study of Mus musculus with 3 samples.

Results

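The amino acid transporter families Slc1, Slc3, Slc6, Slc7, Slc36, Slc38 and Slc43 were followed in cultured mouse fat fibroblasts. Members were the protein-coding genes whose symbol places them in 1 of these 7 families, 61 of the 56748 genes listed: 7 in Slc1, 2 in Slc3, 19 in Slc6, 15 in Slc7, 4 in Slc36, 11 in Slc38 and 3 in Slc43. The rule goes by symbol, so it also takes in carriers of creatine, taurine, monoamines and purine bases that belong to these families. It leaves out Slc6 genes whose symbol ends in a letter. The study profiled visceral adipose fibroblasts of wild-type mice fed a high-fat diet, taken from the stromal vascular fraction after removal of cells bearing CD45, CD31 or Ter119. There were 3 libraries: vehicle (labelled control, with no time given), recombinant mouse oncostatin M (Osm) at 3 ng/mL for 24 h, and TGF-beta1 (transforming growth factor beta 1, a recombinant human protein), likewise at 3 ng/mL for 24 h. The labels give no strain, age, sex or number of mice behind a library. By its title the series is about how macrophages and fibroblasts communicate in the fibrosis of obese fat, and here each ligand is set against vehicle.

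With 1 library per condition there is no replicate, and no p-value is given. Every interval below is an exact 95% interval of a ratio of counts between 2 libraries, and it covers counting error only. The 3 libraries held 17319872 to 18533741 counted reads and had a count in 20346 to 20702 genes. Mitochondrially encoded genes took 1.33% to 1.39% of the counts. Values in threes are always listed as vehicle, Osm, TGF-beta1, and CPM are read counts relative to library size, after TMM scaling of the totals. All 15 genes of the fibroblast list were above 1 CPM in every library, from S100a4 at 12.6, 14.4 and 10.9 CPM to collagen genes such as Col1a1 at 4285, 4023 and 8039 CPM. With TGF-beta1 11 of the 15 had log2 ratios below 0 (median -0.20), among them Dcn (2.41-fold lower), while Pi16 was 4.4-fold higher. Markers of other cell types were low: the 10 leukocyte markers summed to 19.1, 15.9 and 15.1 CPM, with the CD45 gene Ptprc at 0 with vehicle and TGF-beta1, and all 6 erythroid markers were at 0. The adipocyte genes Plin1, Lep and Cfd were at 0 in every library, and nearly all of that list's 41.8, 41.7 and 46.8 CPM came from Pnpla2. The 8 mesothelial markers summed to 43.5, 41.6 and 51.7 CPM and the 6 Schwann cell markers to 12.4, 11.4 and 12.2 CPM. The 8 endothelial markers summed to 58.0, 46.9 and 38.6 CPM, most of it from Tek, and the 8 mural markers to 60.5, 58.9 and 124.3 CPM, where Cspg4 alone went from 8.53 CPM with vehicle to 74.9 CPM with TGF-beta1. With TGF-beta1, 2 of 4 endothelial, 1 of 3 leukocyte and 1 of 6 mural markers that reached 1 CPM were at least 2-fold lower, and 1 mural and 2 of 6 mesothelial markers at least 2-fold higher. Over all genes that reached 1 CPM, 4.79% were at least 2-fold lower and 2.27% at least 2-fold higher. The part of these cells in the transporter values was not tested. In such bulk RNA, fewer cells of a type and less RNA per cell cannot be told apart.

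Amino acid carriers are membrane proteins that either exchange an amino acid for another, couple uptake to sodium or protons, or let amino acids pass down their gradient. Several Slc7 proteins work only as light chains bound to a heavy chain, and the chain encoded by Slc3a2 (4F2hc, or CD98) serves most of them. Slc7a5 with Slc3a2 imports leucine and other large neutral amino acids in exchange for glutamine, which Slc1a5 and Slc38a2 bring in. Fibroblasts that make matrix draw heavily on glycine and proline, since collagen chains are built largely from these residues. Several of the genes are known targets of Atf4, the transcription factor of the amino acid response.

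Of the 61 genes, 34 reached 1 CPM in at least 1 library and 27 did not. No count was found anywhere for 13 of the latter, which allows up to 0.163 CPM with vehicle or TGF-beta1 and 0.173 CPM with Osm. They included Slc6a3, Slc6a5, Slc6a11, Slc6a14, Slc6a16, Slc6a18, Slc6a21, Slc7a12, Slc7a14, Slc36a3, Slc38a8 and Slc38a11. The other 14 had at most 16 counts in any library: Slc1a1, Slc1a2, Slc3a1, Slc6a2, Slc6a4, Slc6a13, Slc6a19, Slc7a9, Slc7a10, Slc7a13, Slc7a15, Slc38a3, Slc38a4 and Slc38a5. Slc7a10, an alanine and serine exchanger known as a white adipocyte surface protein, had 6, 1 and 0 counts.

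Levels between genes were compared as FPKM, which divides by gene length, from the authors' deposited table. Slc1a5, the sodium-dependent exchanger that imports glutamine, ranked first in all 3 libraries at 103.2, 100.7 and 123.7 FPKM. In the vehicle library it was followed by the heavy chain Slc3a2 (70.7 FPKM), Slc38a10 (70.0 FPKM), the creatine carrier Slc6a8 (64.1 FPKM), the leucine exchanger Slc7a5 (60.9 FPKM) and the glutamine carrier Slc38a2 (59.4 FPKM). The taurine carrier Slc6a6 (44.5 FPKM), Slc43a3, which carries purine bases (32.4 FPKM), the glycine carrier Slc6a9 (29.0 FPKM) and the serine and alanine exchanger Slc1a4 (24.5 FPKM) came next. These 10 genes held 84.7%, 84.9% and 84.8% of the summed FPKM of all 61 genes, which came to 659.3, 660.7 and 765.1 FPKM. Slc7a5 held rank 5 of the 34 with vehicle and with Osm and rank 2 with TGF-beta1, and Slc7a3 held ranks 28, 26 and 19.

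**Figure D1:**
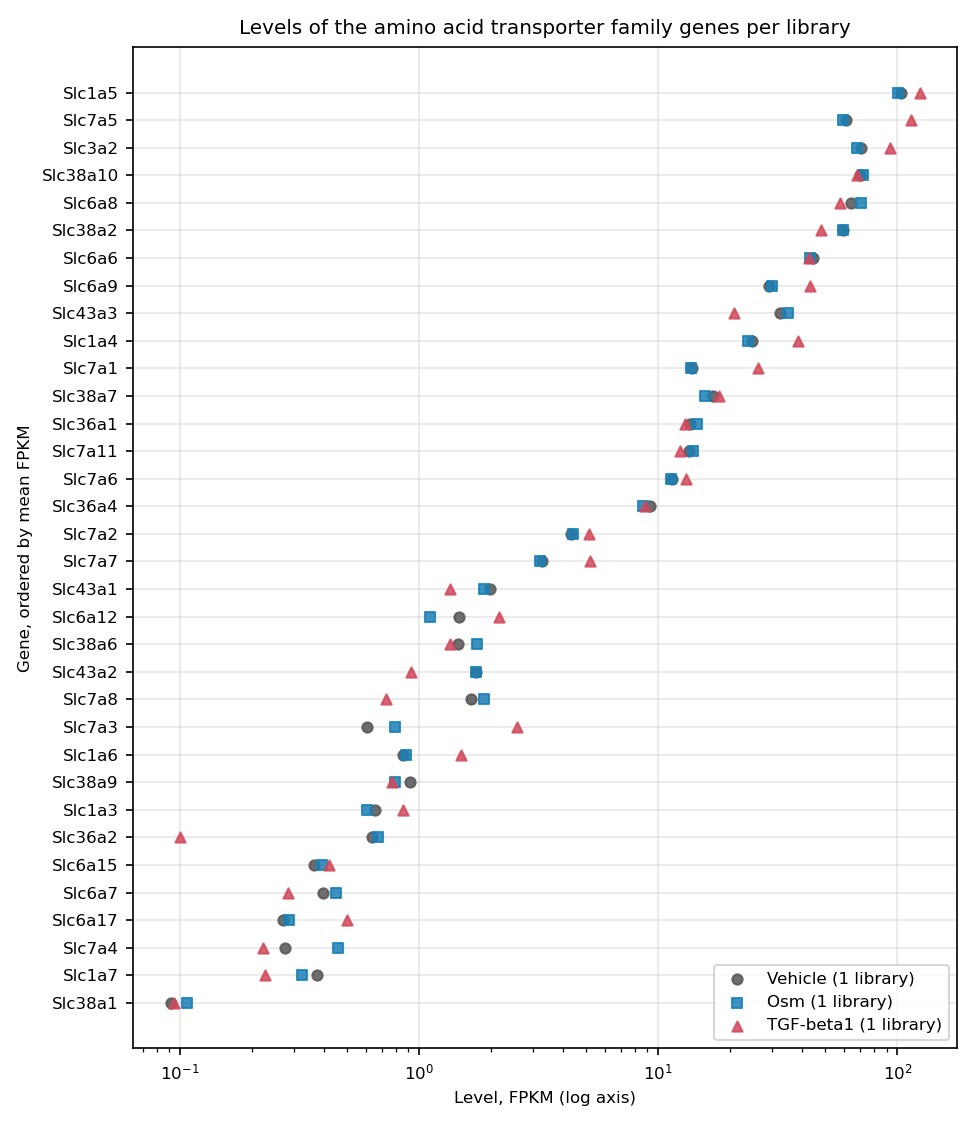
Level of each of the 34 genes that reached 1 CPM, in FPKM on a log axis, with 1 point per library for vehicle, Osm and TGF-beta1, ordered by mean level. Slc1a5 is highest in every library, the vehicle and Osm points lie close together for most genes, and the TGF-beta1 points of Slc7a5, Slc7a1 and Slc7a3 lie to their right while those of Slc7a8 and Slc36a2 lie to their left.

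With Osm the transporter genes lay close to vehicle. None of the 34 genes passed 2-fold: 0 were higher and 0 lower, against 0.948% and 0.649% of all 13712 genes that reached 1 CPM. At 1.5-fold the counts were again 0 and 0, where 2.1% and 1.66% of all genes passed. The median log2 ratio was 0.02, beside 0.00 for all genes. Within 1.2-fold of vehicle lay 31 of 34, or 91.2%, beside 77.8% of all genes and 82.4% of protein-coding genes. The counting interval included a ratio of 1 for 32 of the 34 genes, or 94.1%, beside 78.5% of all genes. The exceptions were Slc6a8, at 333.6 and 369.4 CPM (1.11-fold higher, 1.07 to 1.15), and Slc43a3, at 144.6 and 156.7 CPM (1.08-fold higher, 1.03 to 1.14). Both are small differences in well-covered genes. The widest ratio belonged to a gene with few reads: Slc7a4, an Slc7 protein of uncertain substrate, had 21 counts with vehicle and 33 with Osm (1.67-fold higher, 0.936 to 3.03). The glutamine carriers gave ratios next to 1, with Slc1a5 at 430.5 and 421.7 CPM and Slc38a2 at 524.8 and 524.3 CPM.

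TGF-beta1 was followed by larger differences in both directions. Past 2-fold, 1 of the 34 genes was higher, Slc7a3, and 2 were lower, Slc7a8 and Slc36a2. These are 2.94% and 5.88% of the members, close to the 2.27% and 4.79% found over all 13712 genes. At 1.5-fold, 7 were higher and 4 lower, or 20.6% and 11.8%, beside 6.01% and 9.53% of all genes. The median log2 ratio was 0.00 against 0.01 for all genes, and 17 genes lay above 0 and 17 below. Within 1.2-fold of vehicle lay 14 of 34, or 41.2%, beside 53.3% of all genes and 55.9% of protein-coding genes. The families did not share a direction: exact intervals lay above a ratio of 1 for 13 genes (38.2%, beside 27.8% of all genes) and below it for 9 (26.5%, beside 24.2%). The genes above were in Slc1, Slc3, Slc6 and Slc7. Those below were all 3 of Slc43, Slc36a2 and Slc38a2, and also Slc6a6, Slc6a8, Slc7a8 and Slc7a11, so Slc6 and Slc7 had genes on either side. The fold limits fell among close neighbours, with Slc7a1 (log2 ratio 0.91) and Slc7a5 (0.90) just short of 2-fold and Slc6a9 (0.57) just short of 1.5-fold.

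**Figure D2:**
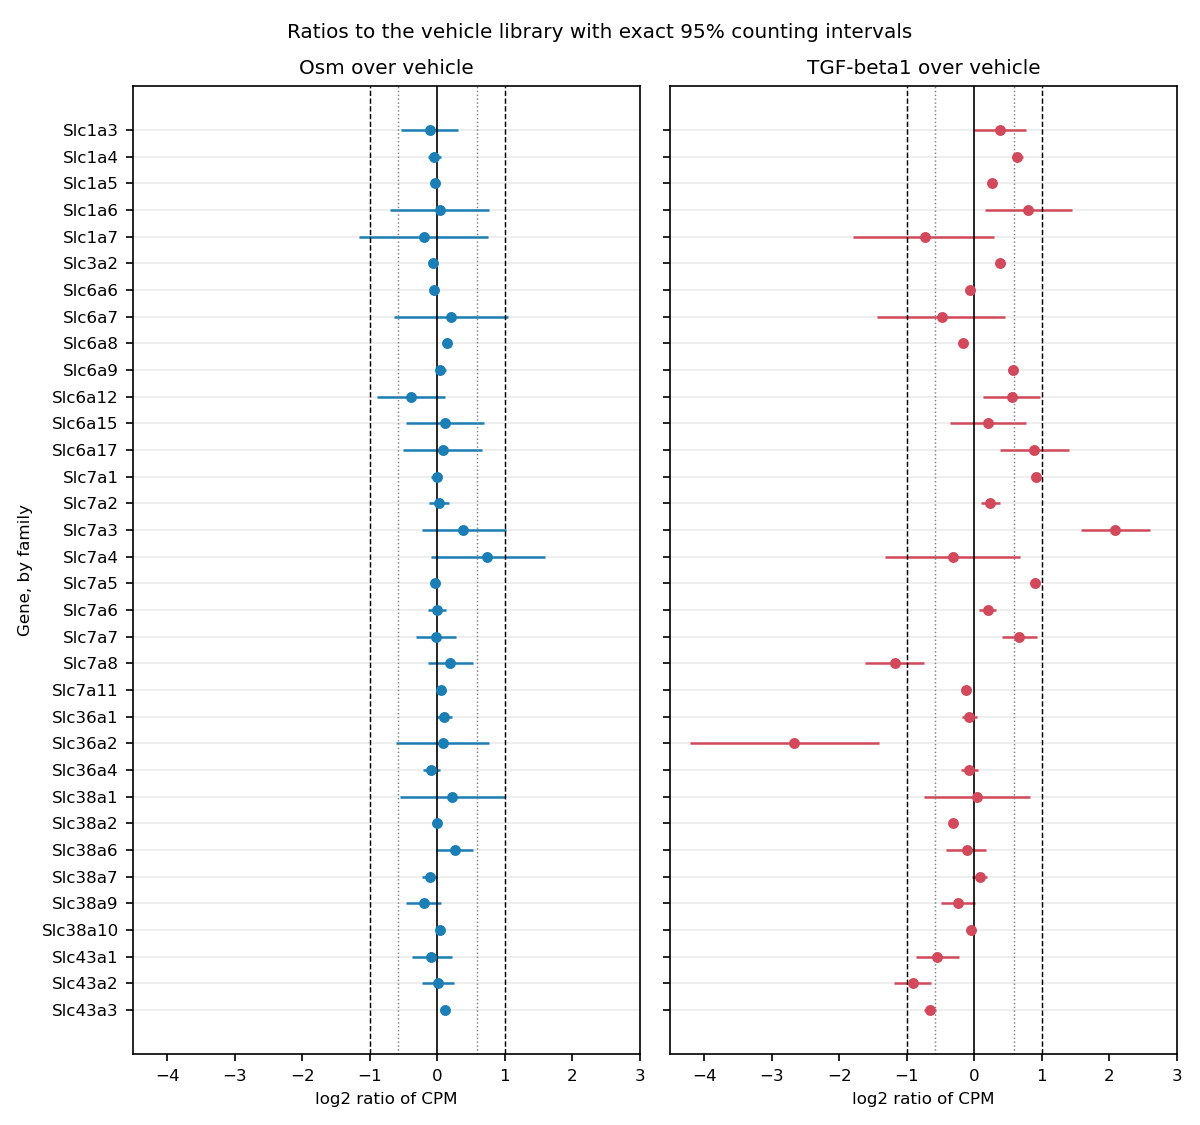
Log2 ratio of CPM to the vehicle library for the 34 genes, by family, with Osm on the left and TGF-beta1 on the right. Bars are exact 95% counting intervals, dashed lines mark 2-fold and dotted lines 1.5-fold. The Osm points gather around 0, while with TGF-beta1 Slc7a3 lies above 1 and Slc7a8 and Slc36a2 below -1.

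Among the heteromeric exchangers, light chains with related substrates differed in opposite directions. Slc7a5 (ENSMUSG00000040010, chromosome 8, 122607889 to 122634433, minus strand, build mm39) was at 225.7, 220.7 and 422.4 CPM. The TGF-beta1 library was 1.87-fold above vehicle (1.80 to 1.94), and the other libraries were alike within counting error. Its heavy chain Slc3a2 (chromosome 19, 8684246 to 8700733) was at 249.3, 240.8 and 327.6 CPM, again with TGF-beta1 highest and by a smaller ratio (1.31-fold, 1.26 to 1.37). Slc7a8, the light chain LAT2, which carries a similar range of neutral amino acids (chromosome 14, 54959666 to 55019403), went the other way. It was at 8.21, 9.39 and 3.64 CPM, which made the TGF-beta1 library 2.26-fold lower than vehicle (1.68 to 3.06). Per length, Slc7a5 was thus 37.1 times as abundant as Slc7a8 with vehicle, 31.7 times with Osm and 157 times with TGF-beta1.

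The ratios of the other light chains that reached 1 CPM lay between these with TGF-beta1. Slc7a7, which exports cationic amino acids in exchange for neutral ones, was at 10.8, 10.7 and 17.1 CPM (1.59-fold higher with TGF-beta1, interval 1.33 to 1.91). It overlaps Oxa1l on the opposite strand over 232 bases. Oxa1l had more reads, at 31.9, 34.5 and 36.2 CPM, and whether reads of the shared bases were told apart by strand is not stated. Slc7a6, of the same exchange type, was at 52.1, 51.9 and 59.7 CPM (1.15-fold higher with TGF-beta1, 1.05 to 1.25). Slc7a11, the light chain of the cystine and glutamate exchanger that feeds glutathione synthesis, was at 186.8, 194.4 and 170.6 CPM and 1.09-fold lower with TGF-beta1 (1.04 to 1.15). The 6 light chains that pair with Slc3a2 (Slc7a5, Slc7a6, Slc7a7, Slc7a8, Slc7a10 and Slc7a11) summed to 90.8 FPKM with vehicle, 89.6 FPKM with Osm and 145.4 FPKM with TGF-beta1. Against the level of Slc3a2 this was a ratio of 1.28, 1.32 and 1.56, and the share of Slc7a5 in the light chain sum was 67.1%, 66.2% and 78.5%.

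The cationic carriers bring in arginine and lysine without a heavy chain. Slc7a3 (ENSMUSG00000031297, X chromosome, 100122816 to 100129626), a carrier best known from the nervous system, was at 2.28, 3.00 and 9.66 CPM. These levels rest on 42, 52 and 178 counts, and TGF-beta1 was 4.23-fold above vehicle (3.01 to 6.07), the largest upward ratio among the 34 genes. Slc7a1, the carrier found in most tissues (chromosome 5, 148264220 to 148336714), was at 159.0, 158.2 and 299.1 CPM, and per length at 13.8 FPKM with vehicle where Slc7a3 was at 0.604 FPKM. With TGF-beta1 it was 1.88-fold above vehicle (1.80 to 1.97), and its Osm and vehicle levels were nearly equal. Slc7a2 was at 39.6, 40.4 and 46.8 CPM, 1.18-fold higher with TGF-beta1 (1.07 to 1.31). Slc7a4 had 21, 33 and 17 counts and overlaps P2rx6 (1.30, 1.44 and 0.326 CPM) on the opposite strand. The cationic group as a whole summed to 201.9, 203.5 and 356.5 CPM, 1.77-fold higher with TGF-beta1 (1.70 to 1.84), mostly through Slc7a1.

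In the Slc1 family, both neutral exchangers were higher with TGF-beta1. Slc1a4 (ENSMUSG00000020142, chromosome 11, 20252180 to 20282713) was at 96.3, 93.4 and 150 CPM (1.56-fold, 1.47 to 1.65). Slc1a5 (chromosome 7, 16515265 to 16532199) was at 430.5, 421.7 and 515.1 CPM (1.2-fold, 1.16 to 1.23). Per length, Slc1a5 exceeded Slc1a4 4.21 times with vehicle, 4.25 times with Osm and 3.23 times with TGF-beta1. The glutamate carriers of the family were scarce. Slc1a3 was at 5.60, 5.19 and 7.27 CPM (1.30-fold higher with TGF-beta1, 0.997 to 1.70). Slc1a6 had 34, 33 and 59 counts (1.73-fold higher, 1.12 to 2.73) and Slc1a7 had 23, 19 and 14 counts (1.65-fold lower, 0.812 to 3.46).

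Slc6 held the glycine carrier Slc6a9 (chromosome 4, 117691703 to 117732395), at 149.1, 154.0 and 222.1 CPM. The TGF-beta1 library was 1.49-fold above vehicle (1.42 to 1.56). Of its 50-base windows, 26.3% also occur in transcripts of Ccdc24 or Gm17114, which overlap it on the opposite strand, and these genes were at 2.28 CPM or less. B4galt2, also overlapping on the opposite strand, was at 32.3, 37.2 and 37.5 CPM. The abundant carriers of non-protein amino acids and creatine stayed near vehicle: Slc6a6 was at 376.2, 364.4 and 360.2 CPM (1.04-fold lower with TGF-beta1, 1.01 to 1.08), and Slc6a8 at 333.6, 369.4 and 299.1 CPM (1.12-fold lower, 1.08 to 1.16). Among the scarce members, Slc6a17, a vesicular carrier of neutral amino acids, had 51, 51 and 94 counts (1.84-fold higher with TGF-beta1, 1.30 to 2.64). The betaine carrier Slc6a12 was at 4.46, 3.40 and 6.57 CPM (1.47-fold higher, 1.10 to 1.97). Slc6a15, which carries branched-chain amino acids and proline, was at 2.83, 3.05 and 3.26 CPM and the proline carrier Slc6a7 at 1.36, 1.56 and 0.977 CPM, both with intervals that include a ratio of 1 in the comparisons with vehicle.

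All 3 Slc43 genes were lower with TGF-beta1. Slc43a1 and Slc43a2 encode LAT3 and LAT4, which let large neutral amino acids pass down their gradient, without exchange. Slc43a2 (ENSMUSG00000038178, chromosome 11, 75422520 to 75468401) was at 17.3, 17.5 and 9.22 CPM (1.87-fold lower, 1.55 to 2.27). It overlaps the low long noncoding gene Gm45606 on the opposite strand, at 1.90, 1.96 and 0.977 CPM. Slc43a1 was at 11.3, 10.7 and 7.70 CPM (1.46-fold lower, 1.17 to 1.82). Slc43a3, with the most reads of the 3, was at 144.6, 156.7 and 92.1 CPM (1.57-fold lower, 1.48 to 1.67). The TGF-beta1 library was the lowest for each of the 3 genes.

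In the proton-coupled and sodium-coupled families, Slc36a2 alone passed 1.5-fold with TGF-beta1. Slc36a2, which carries glycine and proline and is known as a surface protein of brown adipocytes (chromosome 11, 55049296 to 55075903), had 38 counts with vehicle, 38 with Osm and 6 with TGF-beta1. This is 2.07, 2.19 and 0.326 CPM, 6.34-fold lower with TGF-beta1, with a wide interval of 2.66 to 18.4. Its lysosomal relative Slc36a1 was at 76.4, 81.9 and 72.8 CPM and Slc36a4 at 60.2, 56.8 and 57.6 CPM, each within counting error of vehicle in both comparisons. The Slc38 gene with the most reads was Slc38a2 with vehicle and Osm, and Slc38a10 with TGF-beta1. Slc38a2, whose activity adapts to amino acid supply, was at 524.8, 524.3 and 422.3 CPM. It was 1.24-fold lower with TGF-beta1 (1.21 to 1.28), opposite in direction to the exchangers Slc1a5 and Slc7a5. Slc38a10 was at 448.9, 461.3 and 435.5 CPM (1.03-fold lower with TGF-beta1, 0.999 to 1.06) and Slc38a7, a lysosomal glutamine carrier, at 70.4, 65.1 and 74.5 CPM. Slc38a9, the lysosomal arginine sensor of mTORC1, was at 15.2, 13.3 and 12.9 CPM. Slc38a6 was at 11.4, 13.6 and 10.5 CPM, with 35.5% of its windows found in other transcripts, and Slc38a1 at 1.58, 1.84 and 1.63 CPM. Each of these last 5 had an interval that includes a ratio of 1 against vehicle with either ligand.

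Summed by type, the differences with TGF-beta1 went in opposite directions. The light chains summed to 484.2, 487.2 and 673.8 CPM (1.39-fold higher with TGF-beta1, 1.35 to 1.43). The neutral exchangers Slc1a4 and Slc1a5 summed to 526.8, 515.1 and 665.1 CPM (1.26-fold higher, 1.23 to 1.30). The sodium-coupled family Slc38 summed to 1073, 1080 and 957.6 CPM (1.12-fold lower, 1.10 to 1.14) and Slc43 to 173.1, 184.9 and 109.0 CPM (1.59-fold lower, 1.5 to 1.68). Slc7 took 18.4%, 18.4% and 24.9% of all transporter reads, and Slc38 took 28.8%, 28.7% and 23.2%. Per length, the sum over all 61 genes was 106 FPKM above vehicle in the TGF-beta1 library. Slc7a5 alone was 53.2 FPKM above, Slc3a2 22.3 FPKM, Slc1a5 20.4 FPKM and Slc6a9 14.3 FPKM, while Slc43a3 was at -11.8 FPKM and Slc38a2 at -11.5 FPKM relative to vehicle.

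**Figure D3:**
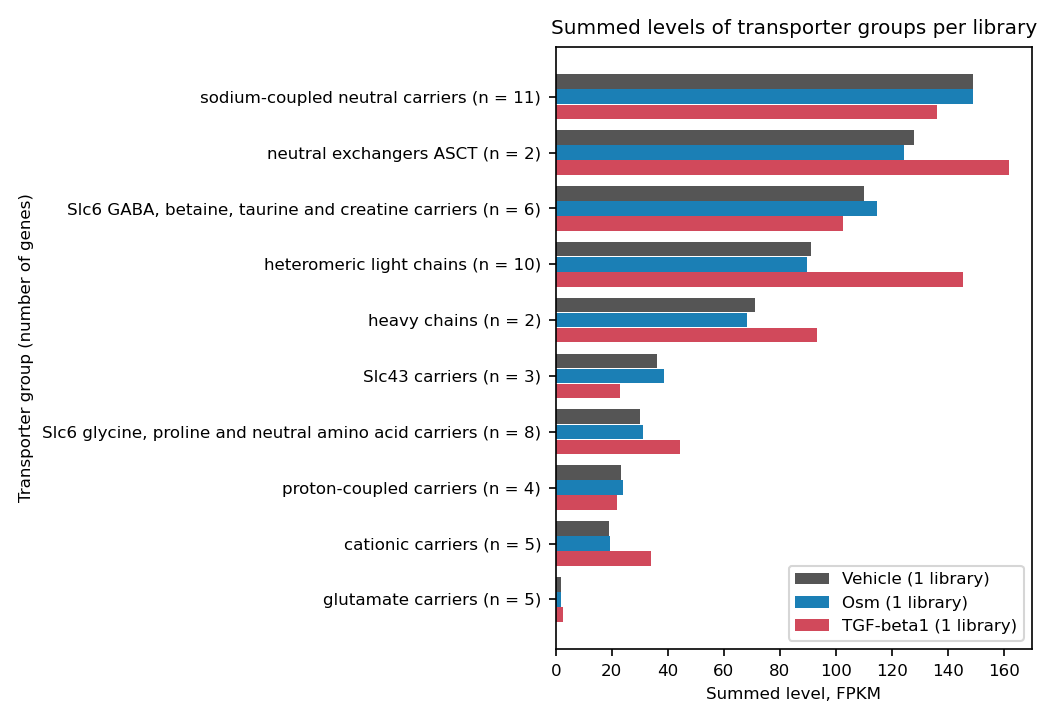
Summed FPKM of each transporter type in the library of each condition (vehicle, Osm, TGF-beta1), leaving out the monoamine carriers and orphans of Slc6, which stayed under 1 CPM. The light chain, heavy chain, neutral exchanger, glycine, glutamate and cationic bars are longest with TGF-beta1, and the sodium-coupled, proton-coupled, Slc43 and creatine and taurine bars are shortest with it.

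Osm and TGF-beta1 were also compared directly, in libraries that the comparisons with vehicle share. With Osm, 3 of 34 genes were at least 2-fold higher than with TGF-beta1 (Slc36a2, Slc7a8 and Slc7a4) and 1 at least 2-fold lower (Slc7a3), where 5.07% and 2.42% of all genes were. Slc7a8 was 2.58-fold higher (1.93 to 3.49) and Slc7a3 3.22-fold lower (2.35 to 4.48). Slc36a2 was 6.73-fold higher (2.82 to 19.5). Slc7a4 was 2.06-fold higher (1.12 to 3.95) and rests on 33 and 17 counts. It is no longer called with a prior count of 2 in place of 0.5, where its log2 ratio was 0.96 instead of 1.02. Slc7a5 and Slc7a1 stayed short of 2-fold here as well, at 1.91-fold (1.84 to 1.99) and 1.89-fold lower (1.81 to 1.98).

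**Figure D4:**
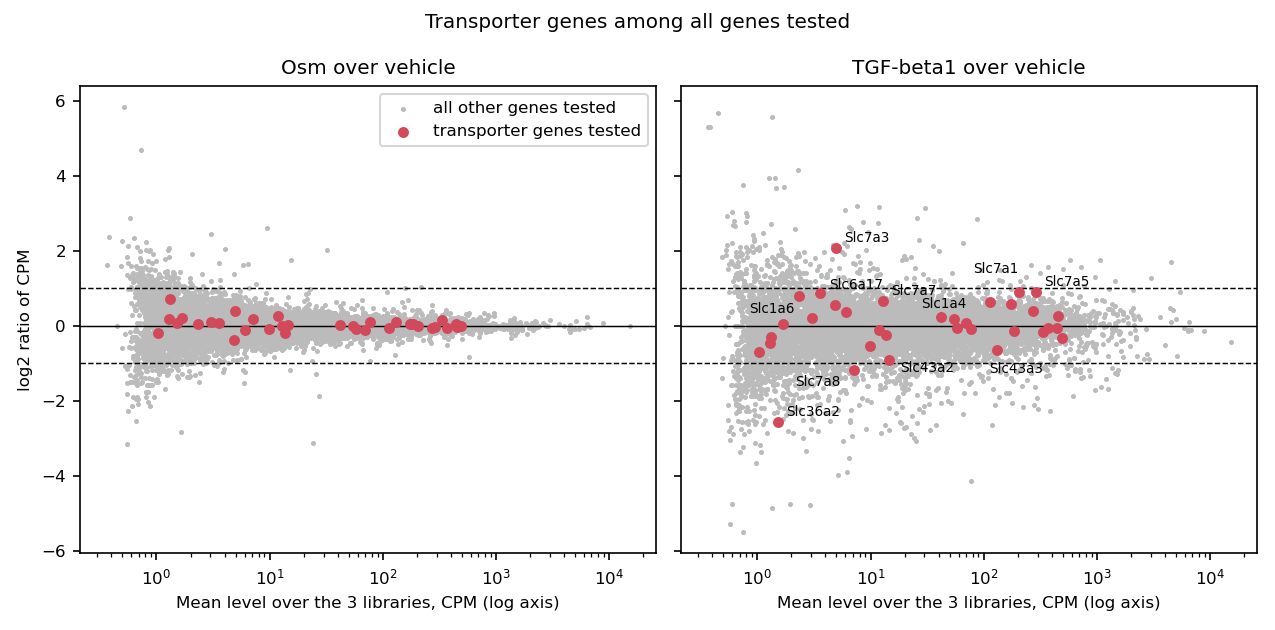
Log2 ratio of CPM to vehicle against mean level in CPM (log axis) for all 13712 genes tested (grey) and the 34 transporter genes among them (red), with Osm on the left and TGF-beta1 on the right. Dashed lines mark 2-fold. The named genes passed 1.5-fold with TGF-beta1, and Slc7a5 and Slc7a1 lie at high levels just under the 2-fold line.

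The amino acid response acts through short composite elements bound by Atf4 with a C/EBP partner, so the promoters of the members that RefSeq's table (GRCm38.p6) holds were searched for the letters TGATGNAA on either strand. The table spans 250 bases before to 50 after each start and matched 43 of the 61 genes (22 of the 34 that reached 1 CPM) with 64 windows. Slc7a5, Slc7a3, Slc1a5, Slc43a3 and Slc36a2 were among those not matched. The letters occurred in 5 of the 64 windows, from Slc1a4, Slc7a7, Slc7a11 and the unexpressed Slc6a21, and in 3.97% of all 32851 windows. Overlapping windows of Slc7a7 hold the same TGATGCAA site, so that site is counted more than once. The Smad palindrome GTCTAGAC was in 0 of the 64 and in 0.213% of all. A stretch of 100 bases that holds a match is shown for each of the 3 genes with a match that reached 1 CPM. Capitals mark the matched letters, read 5′ to 3′ on the gene's own strand, and all 3 genes lie on the minus strand.
Slc1a4, chr11:20332710-20332809: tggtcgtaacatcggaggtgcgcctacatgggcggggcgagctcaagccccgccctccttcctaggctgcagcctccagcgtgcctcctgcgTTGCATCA
Slc7a7, chr14:54417853-54417952: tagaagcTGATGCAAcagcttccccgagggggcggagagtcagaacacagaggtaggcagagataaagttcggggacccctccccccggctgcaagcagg
Slc7a11, chr3:50443624-50443723: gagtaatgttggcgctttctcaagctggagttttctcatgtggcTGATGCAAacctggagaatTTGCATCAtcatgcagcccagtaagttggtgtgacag
Slc7a7 has another match, TGATGAAA, outside the stretch shown, in another of its 5 windows. Slc7a11 carries the letters in both orientations and was 1.09-fold lower with TGF-beta1. Slc1a4 and Slc7a7 were 1.56-fold and 1.59-fold higher. A match describes letters only and is not shown to be a bound site.

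The enzymes that use the carried amino acids were described in the same way. Of 35 measured genes of amino acid metabolism, 3 passed 2-fold upward with TGF-beta1 and 1 downward, where 2.27% and 4.79% of all genes did. At 1.5-fold 13 were higher and 3 lower, beside 6.01% and 9.53% of all genes, so the lower calls were near or under the background. The median log2 ratio was 0.29 beside 0.01 for all genes. Cth, which makes cysteine from cystathionine, was at 10.4, 11.5 and 37.8 CPM (3.64-fold higher with TGF-beta1, 3.10 to 4.29). Odc1, the first enzyme of polyamine synthesis from ornithine, was at 84.6, 97.4 and 236.5 CPM (2.80-fold, 2.64 to 2.96). Pycr1, the last step of proline synthesis, was at 34.6, 27.7 and 75.0 CPM (2.17-fold, 1.97 to 2.39). The glycine-cleaving enzyme Gldc was at 21.4, 23.5 and 8.57 CPM (2.50-fold lower, 2.07 to 3.02). The serine synthesis gene Psat1, with the most reads of the list, was at 335.9, 336.3 and 529.3 CPM (1.58-fold higher, 1.53 to 1.63), while Glud1, which turns over glutamate, was 1.07-fold higher (1.03 to 1.11). With Osm, 0 of the 35 passed 2-fold or 1.5-fold, where 0.948% and 2.1% of all genes were higher and 0.649% and 1.66% lower. Pycr1 (1.25-fold lower, 1.11 to 1.41) and the glutamine synthetase gene Glul (1.15-fold higher, 1.08 to 1.23) differed most among those at 5 CPM or more.

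Of 36 measured genes that sense amino acids or belong to mTORC1, 0 passed 2-fold upward with TGF-beta1 and 1 downward. Over all genes 2.27% and 4.79% did, and the median log2 ratio of the 36 was 0.03. At 1.5-fold 0 were higher and 2 lower (Rragd and Fnip2), beside 6.01% and 9.53% of all genes. The 1 gene past 2-fold was Rragd, a Rag GTPase that recruits mTORC1 to lysosomes, at 26.3, 25.4 and 11.8 CPM (2.22-fold lower with TGF-beta1, 1.89 to 2.62). Fnip2, a partner of folliculin, was at 70.7, 81.9 and 43.9 CPM (1.61-fold lower, 1.47 to 1.76). Atf4 itself was at 418.8, 410.7 and 515.6 CPM (1.23-fold higher, 1.19 to 1.27), and Rragc at 176.6, 166.8 and 184.1 CPM. With Osm, 0 of 36 passed 2-fold, where 0.948% of all genes were higher and 0.649% lower. The Osm ratios of Sesn1 (1.23-fold lower, 1.08 to 1.39) and Ddit4 (1.18-fold higher, 1.09 to 1.29) were the widest at 5 CPM or more.

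Amino acid and peptide carriers outside the 7 families gave 0 calls of 22 at 2-fold in either direction with either ligand, with median log2 ratios of 0.06 for Osm and 0.09 for TGF-beta1. Of all genes, 0.948% were higher and 0.649% lower with Osm, and 2.27% and 4.79% with TGF-beta1. At 1.5-fold with TGF-beta1, 1 of the 22 was higher and 0 lower, beside 6.01% and 9.53% of all genes. It was the mitochondrial carrier Slc25a13 (1.96-fold, 1.17 to 3.34), at 1.30 and 2.55 CPM. With TGF-beta1 the widest ratios at 5 CPM or more were of the lysosomal sialic acid and acidic amino acid carrier Slc17a5 (1.42-fold lower, 1.22 to 1.66) and the aromatic amino acid carrier Slc16a10 (1.40-fold lower, 1.19 to 1.65). The mitochondrial carriers Sfxn3 and Slc25a39, with the most reads of them, were 1.11-fold and 1.28-fold higher. With Osm the mitochondrial carriers Slc25a29 (1.29-fold higher, 0.997 to 1.68) and Slc25a15 (1.26-fold higher, 1.01 to 1.59) had the widest. Among 8 measured partners and regulators of the transporters, 0 passed 2-fold. At 1.5-fold with TGF-beta1 2 were higher and 1 lower, where 6.01% and 9.53% of all genes were, and the median log2 ratio was -0.12. The 2 were Sgk1 and Cd44 and the other Nedd4l. Sgk1, a kinase that opposes removal of carriers from the membrane, was at 130.2, 143.0 and 255.3 CPM (1.96-fold higher with TGF-beta1, 1.87 to 2.06). Nedd4l, a ubiquitin ligase that Sgk1 acts on, was at 112.4, 124.2 and 64.3 CPM (1.75-fold lower, 1.63 to 1.88), and its relative Nedd4 was 1.31-fold lower (1.28 to 1.33). The integrin gene Itgb1, whose product associates with Slc3a2, was 1.37-fold higher (1.35 to 1.39). With Osm, Sgk3 (1.36-fold lower, 1.04 to 1.79) and Nedd4l (1.10-fold higher, 1.04 to 1.17) differed most among those at 5 CPM or more.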

How the data were processed

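RNA sequencing of 3 libraries was analysed, grouped by title. Per the labels' protocols, polyadenylated RNA was captured on beads and copied from random hexamers, for a library type, stranded or not, that is not stated. The authors deposited, for each Ensembl gene, a whole-number count of reads and an FPKM value. CASAVA, TopHat2, HISAT and HISAT2, and the build mm39, are named in the submitters' processing notes, without versions. Counter, annotation release and filters were not given in the sources used here. Deposited FPKM, as the authors scaled them, equal counts over gene length and over the DESeq2 size factor times the geometric mean of the totals. Since the strand setting is not stated, reads of genes overlapping on opposite strands may not have been told apart.

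Counts (17319872 to 18533741 per library) were scaled to CPM with TMM factors (0.995 to 1.004) of edgeR 4.0.16 in R 4.3.3. The 13712 genes with at least 1 CPM in any library were compared. A gene was called where its log2 ratio (prior count 0.5) reached 2-fold, or 1.5-fold where stated, and its exact 95% counting interval (Clopper-Pearson, binomial on the summed reads of both libraries) excluded 1. Folds printed with intervals are plain CPM ratios. A count of 0 was bounded by 3 counts. Intervals and floors cover counting error only, with 1 library per condition, and reads carry no molecular identifiers. Shared 50-base windows come from GENCODE M21 transcripts. Python 3.11.15, scipy 1.17.1 and DESeq2 1.42.0 were also used. Every member that reached 1 CPM is named, and 1 item is not reported here. Members past 1.5-fold and the 10 most abundant are described in full, and of each of 4 gene lists the members past 2-fold, the 2 widest ratios at 5 CPM or more and the 2 most abundant. The members and lists were chosen with earlier results of these data known. Gene positions are those of the deposited table, while promoter windows are in GRCm38.p6.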

Additional observations from a re-analysis of the deposited data

How the results depend on the processing

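No paired analysis was possible because there is 1 library per condition. For the same reason no library could be left out, and no test of a difference between cultures exists. The alternatives were DESeq2 size factors, library totals, no filter, a filter at 5 CPM, a 1.5-fold limit, a prior count of 2 and ratios of the deposited FPKM plus 0.01. Of 76 values under them, 70 stayed the same by the limits set (counts within 1.5 times, medians within counting error). Some medians inside these limits still moved with the filter. At 5 CPM the member median for TGF-beta1 over vehicle was 0.082 in place of 0.001, and with no filter it was -0.064. For Osm over TGF-beta1 it was -0.196 at 5 CPM in place of -0.003. With TGF-beta1, genes at least 2-fold lower came to 1 with the filter at 5 CPM, since Slc36a2 is then not tested, and 1.5-fold limits gave 7 higher and 4 lower. For Osm over TGF-beta1, the filter at 5 CPM left 1 higher gene, the prior count of 2 left 2 (without Slc7a4), and the 1.5-fold limit gave 5 higher and 8 lower. DESeq2 size factors and the FPKM ratios kept all 204 single-gene ratios inside their counting intervals. These are not separate checks, since the deposited FPKM carry the same size factors. Such factors shift all genes of a comparison nearly alike and by little, so this outcome was close to fixed in advance. Depth limits the genes under about 5 CPM, such as Slc36a2 and Slc7a4, whose intervals span several-fold.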
